A study of Rattus norvegicus with 10 samples.

Results

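IGHV5S11 is an immunoglobulin heavy chain variable gene of the rat, one of the 27 genes of the IGHV5 subgroup with a productive read in these data. The reads described here are the productive sequences whose first named IGHV gene was IGHV5S11, which were 11816 of 1615896 productive reads in 10 animals, or 0.731%. The gene was chosen by its number of reads in animals immunized with dinitrophenyl (DNP) against animals immunized with HuD, so its level is given as a description, with no test. All 10 animals were Wistar rats of outbred stock, each giving 1 library of heavy chain variable domains from spleen cells. In the DNP group, 5 animals received keyhole limpet hemocyanin that carried DNP, a small chemical group used as a defined epitope, and in the HuD group 5 animals received recombinant HuD, a neuronal RNA-binding protein. Both groups had the immunization and later boosts at the same intervals, there were no unimmunized animals, and the animals were littermates according to the study. The labels and the study's methods name neither the age of the animals nor the IGHV alleles they carry.

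A heavy chain variable domain is assembled in each developing B cell from 1 IGHV, 1 IGHD and 1 IGHJ gene. The joint between them encodes CDR3, the most variable of the 3 loops that contact the antigen, while CDR1 and CDR2 are encoded by the IGHV gene. B cells that descend from the same ancestor carry the same or a nearly identical CDR3, and their variable domains diverge by somatic hypermutation during the response in germinal centres. An animal uses an IGHV gene only if its germline holds a functional copy, and annotation software assigns a read to the most similar gene of its reference.

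In the following, a read is 1 collapsed sequence, whatever its number of sequenced copies. Several CDR3 sequences of up to 14 residues are printed to show which clones made up the reads, because a clone is recognised by its CDR3, while longer ones are described by their length. The leading CDR3 sequences of 3 animals with many reads and of 1 animal with few are the following.
DNP1, IGHJ4: ARHGEVHLRYAMDA
DNP1, IGHJ3: ASLLLPNWFTY
DNP4, IGHJ2: AKAGGYSPWYFDY
DNP5, IGHJ2: ARRDTFYYFDY
HuD5, IGHJ2: ARGGFFRY

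IGHV5S11 was found in all 10 animals and was abundant in 4 of the 5 DNP animals. It had 5298 reads in DNP1, 978 in DNP3, 3434 in DNP4 and 1421 in DNP5, but 68 reads in DNP2. The HuD animals had 115, 100, 140, 123 and 139 reads, from HuD1 to HuD5. The DNP animals therefore held 11199 of the reads and the HuD animals 617.

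On the RPM scale, which divides by the productive reads of the library and multiplies by 1000000, the level was 37995 for DNP1, 16126 for DNP3, 15505 for DNP5 and 13216 for DNP4, against 549 for DNP2. The HuD animals lay between 445 in HuD2 and 833 in HuD3, with a mean of 670.4 RPM ± 143 (SD, n = 5). DNP2 lay within the range of the HuD animals, so the 2 groups overlapped, and the gene cannot be described as particular to all DNP animals. The mean of the DNP animals was 16678 RPM ± 13493 (SD, n = 5), and 20710 RPM ± 11591 (SD, n = 4) without DNP2. On the scale of log2(RPM + 1) the DNP mean was 3.82 above the HuD mean, and 4.84 above it without DNP2.

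In the order of the levels, DNP1 stood first and DNP3, DNP5 and DNP4 followed. The 95% exact binomial interval, which covers counting error only, was 15139 to 17160 RPM in DNP3 and 14715 to 16326 RPM in DNP5, so these neighbours did not differ beyond counting error. The interval of DNP2, 427 to 696 RPM, overlapped those of HuD1, HuD2, HuD4 and HuD5, such as 362 to 542 RPM in HuD2, and ended just below that of HuD3, 701 to 983 RPM. The order of the 4 animals depended on the unit. Counted in sequenced copies it was DNP1 with 28371 copies per 1000000 productive copies, DNP4 with 13939, DNP5 with 12501 and DNP3 with 9810, and among reads with at least 2 copies DNP3 had 2576 RPM, from 28 reads. In both counts the 4 animals lay above the other 6. By reads, IGHV5S11 ranked 10th of 92 IGHV genes with a read in DNP1, 11th of 91 in DNP3, 20th of 105 in DNP4 and 18th of 98 in DNP5. In DNP2 and the HuD animals its rank was between 45 and 55. Since bulk RNA was used, more cells with the gene and more transcript per cell cannot be told apart.

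**Figure D1:**
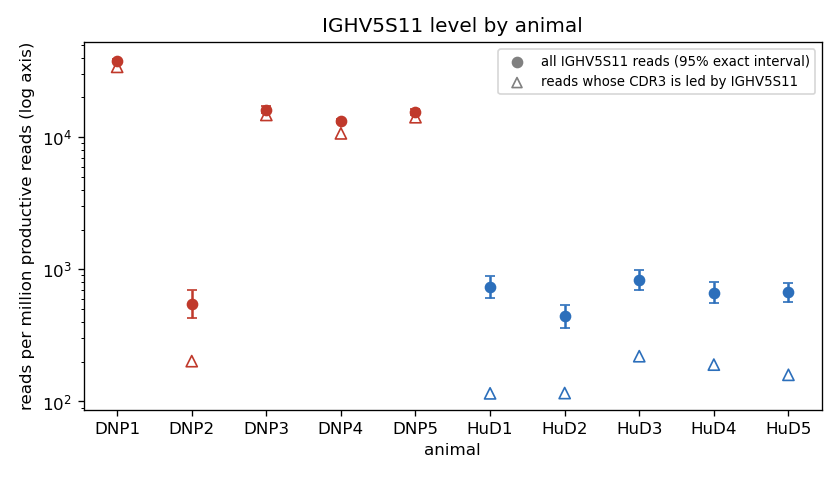
IGHV5S11 level (RPM) in each animal on a log axis, as filled circles with 95% exact binomial intervals, and the part of them whose CDR3 was led by IGHV5S11 in that animal, as open triangles (DNP red, HuD blue). Both measures are at 10691 RPM or more in DNP1, DNP3, DNP4 and DNP5, while DNP2 and the 5 HuD animals lie at 833 RPM or less, with triangles between 115 and 220 RPM.

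Most reads named a single IGHV gene. Of the 11816 reads, 711 (6.02%) named a further IGHV gene with an equal match, and IGHV5S13 was named in 5.02% of the reads. The share of reads with several names was between 1.94% and 7.57% in DNP1, DNP3, DNP4 and DNP5, 11.8% in DNP2 and between 11.3% and 19.4% in the HuD animals.

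To see whether the reads formed clones of their own, each CDR3 was looked up in all productive reads of the same animal. A CDR3 is called led by the gene that most of these reads name. In DNP1, 89.7% of the IGHV5S11 reads had a CDR3 led by IGHV5S11, and the share was 91.4% in DNP3, 80.9% in DNP4 and 91.4% in DNP5. In DNP2 it was 36.8%, and in HuD1 to HuD5 it was 15.7%, 26%, 26.4%, 28.5% and 23.7%. The 4 animals with the highest level thus stood above the other 6 without overlap in this measure. It is not independent of the level that chose the gene, because the reads by which a gene leads a CDR3 also count in its level.

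The count was then limited to CDR3 sequences with more than 1 read in the animal. Those led by IGHV5S11 held 4469 reads in DNP1, 802 in DNP3, 2460 in DNP4 and 1129 in DNP5. They held 0 reads in DNP2, 1 in HuD1, 2 in HuD2, 1 in HuD3 and 0 in HuD4 and HuD5. The remaining IGHV5S11 reads of these 6 animals either stood alone with their CDR3 or shared it with reads led by another gene. IGHV5-25 led most often, for 67 of 115 reads in HuD1, 55 of 140 in HuD3 and 12 of 68 in DNP2. As an example, ARGGFFRY was the leading CDR3 of IGHV5S11 in HuD5 with 12 reads, but it had 2494 reads in this animal, of which 1865 named IGHV5-31.

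The clones of the DNP animals were in turn not named uniformly. In DNP1, the CDR3 ARHGEVHLRYAMDA had 1788 reads, of which 1223 (68.4%) named IGHV5S11, 132 named IGHV5-20 and the others named further genes, 19 genes in all. In DNP4, AKAGGYSPWYFDY had 1412 reads, of which 901 (63.8%) named IGHV5S11. Over all CDR3 sequences led by IGHV5S11, the share of reads that named it was 66.6% in DNP1, 76.1% in DNP3, 59.3% in DNP4 and 74.3% in DNP5. Counts of IGHV5S11 reads are thus below the counts of reads with the same CDR3 sequences.

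The V region of the reads was compared by IMGT position, the standard numbering of variable domain residues, in which CDR1 spans the positions 27 to 38 and CDR2 the positions 56 to 65. A consensus of 96 residues was built with equal weight for each animal. DNP2 and the HuD animals thus counted as much as the others. Only 15.7% to 36.8% of their IGHV5S11 reads had a CDR3 led by this gene. The most similar consensus was that of IGHV5-25, which differed by 3 residues, M19L, G59S and E98D, where the first letter is the residue of IGHV5S11 and the last that of the other gene. Among IGHV5-25 reads, however, 42.8% carried M at position 19 and 43.4% carried G at position 59. IGHV5S13, IGHV5-27 and IGHV5S23 each differed by 4 residues, among them M19L and E98D in all 3 genes. IGHV5S13 further differed by Y38G and S85N, IGHV5-27 by S55Y and N64S, and IGHV5S23 by Y38D and G59S.

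Glutamic acid at position 98 set the gene apart from these relatives. It was present in 94.1% to 99.9% of the IGHV5S11 reads of each animal, but in 0.252% of IGHV5-25 reads, 0.566% of IGHV5S13 reads, 1.53% of IGHV5-27 reads and 1.79% of IGHV5S23 reads. Since the name was assigned by similarity, this residue is partly what the rule used. It can, however, be followed in reads that received another name. Among the reads of ARHGEVHLRYAMDA in DNP1 that named other genes, 68.1% of 565 reads carried E at position 98. The corresponding share was 63.0% of 511 reads for AKAGGYSPWYFDY in DNP4.

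In HuD animals the reads with the same CDR3 but another name mostly lacked it. In HuD3, ASLNYGGYIEEFDY had 1156 reads with other names, of which 0.173% carried E at position 98, beside 5 reads that named IGHV5S11. In HuD4, VRQDTSGYSNWFTY had 1278 such reads with 0.548%, beside 5 reads of IGHV5S11. In HuD5 the share was 10.6% of 2482 reads for ARGGFFRY, and 50% of 70 reads for a CDR3 of 18 residues that was led by IGHV5-46.

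Counted over all IGHV5 reads whatever the name, E at position 98 was carried by 53937 RPM in DNP1, 23590 in DNP5, 23284 in DNP4 and 22887 in DNP3. The level was 3683 RPM in DNP2, and in the HuD animals it ran from 3276 in HuD1 to 6046 in HuD5. As a share of the IGHV5 reads this was 8.01%, 3.08%, 3.79% and 3.60% in DNP1, DNP3, DNP4 and DNP5, and between 0.427% and 0.939% in the other 6 animals. Of these reads, 70.4%, 70.2%, 56.4% and 65.6% in DNP1, DNP3, DNP4 and DNP5 named IGHV5S11, against 11.0% to 22.7% in the other 6 animals, so that this measure largely counts the same reads and is not independent of the level.

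Methionine at position 19 was less uniform. It was present in 59.8% of the IGHV5S11 reads of DNP1, 72.6% of DNP3, 63.8% of DNP4 and 55.7% of DNP5, against 41.2% in DNP2 and 34.1% to 53.0% in the HuD animals. Even within the CDR3 ARHGEVHLRYAMDA it varied, with M at this position in 67.5% of the 1223 IGHV5S11 reads of DNP1. In ARRDTFYYFDY of DNP5 it was present in 7.49% of 227 reads, and in ARQKNWGYFDY of the same animal in 84.9% of 73 reads.

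To examine what moved with IGHV5S11 across animals, the log2(RPM + 1) values of the other 80 IGHV genes with at least 100 productive reads were correlated with those of IGHV5S11 over the 10 animals. These correlations are descriptions over animals that fall into a high and a low set, and they carry no p-value. The genes most like it were IGHV1-43 with r = 0.91, IGHV2-8 with r = 0.87 and IGHV2S18 with r = 0.78. IGHV1-43 had between 19531 and 59846 RPM in DNP1, DNP3, DNP4 and DNP5, 3901 RPM in DNP2 and between 2368 and 13109 RPM in the HuD animals.

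Stronger relations were found in the opposite direction, for genes chosen after their values were seen. While 1 gene had r above 0.9, 12 genes had r below -0.9. IGHV5-35, another gene of the same subgroup, had r = -0.97. It had 0 reads in DNP1, DNP3, DNP4 and DNP5, but 606 reads in DNP2 and 601, 461, 860, 1025 and 173 reads in HuD1 to HuD5. The highest level of IGHV5-35 that 0 reads allow, taken as 3 reads, was 21.5 RPM in DNP1, 49.5 in DNP3, 11.5 in DNP4 and 32.7 in DNP5, while the other 6 animals had between 834 and 5566 RPM.

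The same 4 animals, and no others, had 0 reads of 4 further genes. These were IGHV5-36, IGHV5-43, IGHV5-54 and IGHV2S75, with 1969, 918, 1738 and 684 reads in the other 6 animals. IGHV2-45 had 6 reads in DNP4, 0 in DNP1, DNP3 and DNP5, and between 188 reads in DNP2 and 2021 reads in HuD2 in the others. IGHV2S63 had between 1 and 13 reads in the 4 animals and between 418 and 2121 in the other 6. These genes were picked for their relation to IGHV5S11, which is low in DNP2, and other genes set DNP2 apart from the HuD animals. IGHV3-1 was at 188047 RPM in DNP2, the highest of the 10 animals, against 73323 to 118834 RPM in the other DNP animals and 21085 to 47094 RPM in the HuD animals. The labels give no genotype, and whether the animals differ in their germline IGHV genes was not tested. With 4 of the 5 DNP animals on the same side, the immunogen and such a difference cannot be told apart for IGHV5S11.

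**Figure D2:**
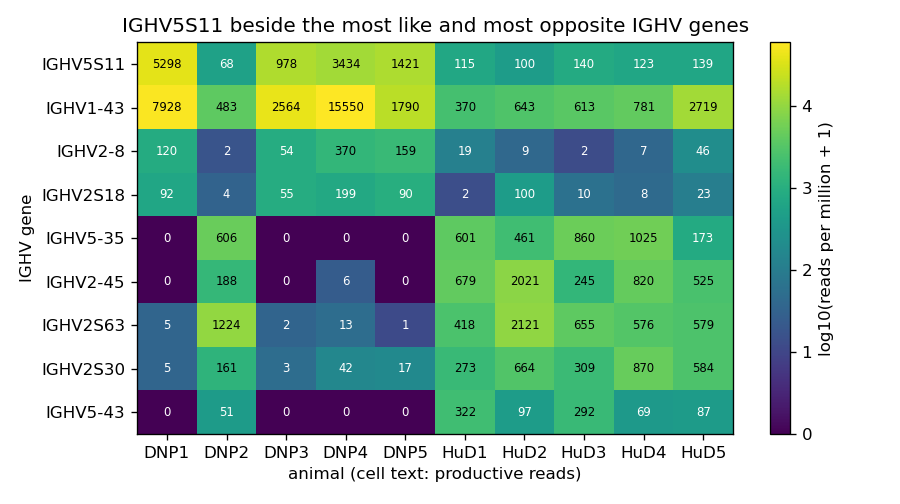
Level of IGHV5S11, of the 3 IGHV genes with the most similar pattern over the 10 animals and of the 5 with the most opposite pattern, coloured as log10(RPM + 1), with the number of productive reads written in each cell. DNP1, DNP3, DNP4 and DNP5 have 0 reads of IGHV5-35 and IGHV5-43, while DNP2 and the HuD animals have between 51 and 1025 reads of them.

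The usage of the IGHV5 subgroup was tested with edgeR between the 5 DNP and 5 HuD animals, without IGHV5S11. None of the 23 tested IGHV5 genes passed an adjusted p of 0.05, where 0 of 80 IGHV genes (0%) passed. Before adjustment, 6 of the 23 IGHV5 genes and 18 of the 80 had p under 0.05, and DESeq2 called 5 of the 23 where 13 of the 80 (16.2%) passed. The median log2 fold change was -0.12 for the 23 IGHV5 genes and -0.15 for the 80 genes. The smallest p of the subgroup was that of IGHV5-41, with a log2 fold change of 4.40 ± 1.42 (SE) and an adjusted p of 0.188 by edgeR's quasi-likelihood test. IGHV5-41 had 445 RPM in DNP1 and 316 in DNP5, but 8.08 in DNP2, 16.5 in DNP3 and 23.1 in DNP4, and between 0 and 12.8 RPM in the HuD animals. Its DNP mean of 162 RPM was 91.0 RPM without DNP1. IGHV5-25, the nearest relative of IGHV5S11, had 63307 RPM in the DNP and 122158 RPM in the HuD animals, with a log2 fold change of -0.96 ± 0.45 and an adjusted p of 0.227.

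Without DNP2, 10 of the 23 IGHV5 genes passed the same edgeR test, where 29 of the 80 genes (36.2%) passed. The count of 0 thus changed with the tool and with this animal, for the subgroup and for all genes.

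The IGHV5S11 reads held 2723 different CDR3 sequences. There were 735 in DNP1, 219 in DNP3, 878 in DNP4 and 316 in DNP5, against 67 in DNP2 and 92 to 120 in the HuD animals. The mean number of reads per CDR3 was 7.21 in DNP1, 4.47 in DNP3, 3.91 in DNP4, 4.50 in DNP5 and 1.01 in DNP2, and between 1.09 and 1.24 in the HuD animals. Still, most CDR3 sequences had a single read in every animal, for example 549 of 735 in DNP1 and 660 of 878 in DNP4. The higher level was accordingly found in the number of different CDR3 sequences as well as in the reads of each.

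CDR3 sequences of equal length and with the same IGHJ gene were linked where they differed at no more than 20% of the residues. Sequences linked directly or through others were joined into families, which approximate clones. Members of a family can thus differ at more than 20% of the residues. There were 1985 families, of which 1470 had a single read. The 116 families with at least 10 reads held 76.5% of all IGHV5S11 reads. The number of families with at least 10 reads within the animal was 34 in DNP1, 12 in DNP3, 39 in DNP4, 22 in DNP5 and 0 in DNP2, and between 0 and 2 in the HuD animals.

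The largest family was that of ARHGEVHLRYAMDA in DNP1, with 1937 reads, 47 different CDR3 sequences and IGHJ4. It made up 36.6% of the IGHV5S11 reads of this animal. The second was that of AKAGGYSPWYFDY with 1070 reads in DNP4, or 31.2%, which was joined to IGHJ2. The family of ASLLLPNWFTY followed with 998 reads in DNP1 and IGHJ3, and it included the CDR3 ASLILPNWFAY with 364 reads. In DNP3 the largest family had a CDR3 of 15 residues with IGHJ2 and 339 reads, or 34.7%, and the next had 16 residues with IGHJ1 and 210 reads.

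In DNP5 the leading family was that of ARRDTFYYFDY with 228 reads, or 16% of the IGHV5S11 reads, followed by ARAGVQWYYFDY with 162 reads. In DNP4, ARVQLGYYALDA led a family of 241 reads with IGHJ4. In DNP2 the largest family had 3 reads. The largest families of HuD1 and HuD4 had 19 reads each, 16.5% and 15.4% of the few IGHV5S11 reads of these animals, and those of HuD2, HuD3 and HuD5 had 6, 8 and 16 reads.

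**Figure D3:**
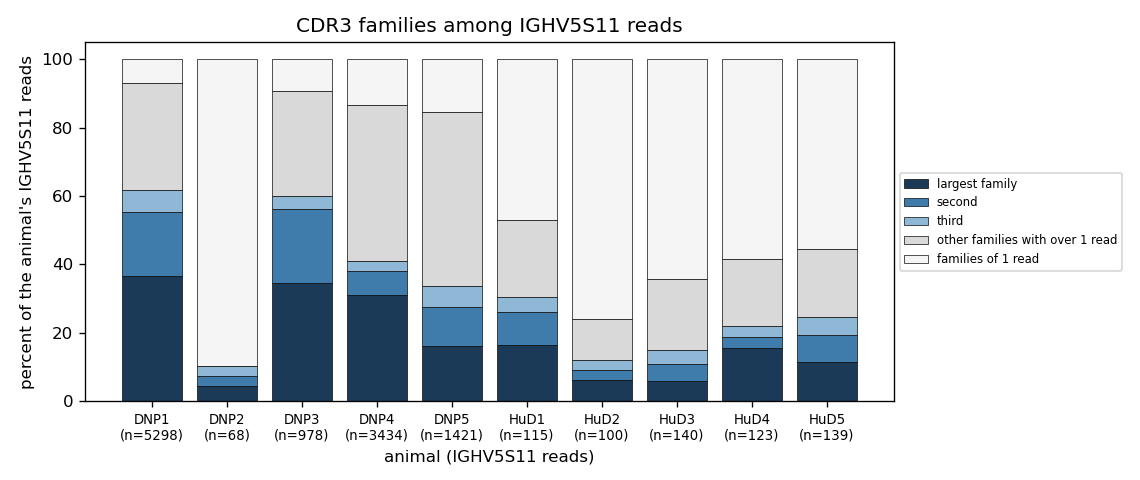
Share of each animal's IGHV5S11 reads in each of its 3 largest CDR3 families, in other families with over 1 read and in families of 1 read, with the number of reads under each bar. The 3 largest families hold 61.9% of the reads in DNP1, 60.0% in DNP3, 40.9% in DNP4 and 33.6% in DNP5, while in DNP2 and the HuD animals they hold between 10.3% and 30.4%.

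Within a family the V region was diverse. The 1937 reads of the ARHGEVHLRYAMDA family had 905 different V regions, the 1072 reads of the AKAGGYSPWYFDY family 531, and the 162 reads of the ARAGVQWYYFDY family 67. Reads with a complete V region differed from the consensus at 4.69 residues on average in DNP1, 6.60 in DNP3, 4.81 in DNP4 and 5.63 in DNP5. In DNP2 it was 8.46 residues and in the HuD animals between 7.82 and 9.30. Reads identical to the consensus were 83 in DNP1, 17 in DNP3, 207 in DNP4 and 194 in DNP5, and between 0 and 2 in each of the other animals. Between 78.0% (DNP4) and 97.1% (DNP3) of an animal's IGHV5S11 reads rest on 1 sequenced copy. Errors of amplification or sequencing in such reads are not corrected by further copies. How much they add to these counts was not tested.

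The differences from the consensus were concentrated in the antigen-contacting loops. Averaged over positions and animals, 25.4% of the reads differed at a position of CDR2 and 13.7% at one of CDR1, while FR1, FR2 and FR3, the frameworks that carry the loops, had 4.91%, 5.03% and 5.67%. The 10 most variable positions were 58, 19, 64, 59, 38, 63, 55, 36, 85 and 57 in decreasing order, of which 5 lie in CDR2 and 2 in CDR1. At position 58 the share of reads that differed was 30% in DNP1 and 66.7% in DNP3, and between 41.7% and 69.9% in the HuD animals. Reads of IGHV5-25 also differed from the IGHV5S11 consensus at these 10 positions. Their group means lay between 14.0% at position 85 in HuD and 75.2% at position 19 in DNP animals. M19L and G59S, for example, are the consensus residues of IGHV5-25. Whether a difference arose by somatic hypermutation or belongs to a related gene was not tested.

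Some substitutions were frequent in particular animals. S55A, next to CDR2, was present in 62.9% of the reads of DNP3 and 32.2% of the reads of DNP4, against 3.36% in DNP1, 0.281% in DNP5, 1.47% in DNP2 and no more than 1.00% in a HuD animal. S55A was carried by 45 of the 142 families in DNP3 and 145 of the 645 families in DNP4. The 3 largest, however, held 87.5% and 78.3% of the S55A reads, and the family of AKAGGYSPWYFDY alone 68.2% of those in DNP4. The other IGHV5 reads had A at position 55 in 1.61% of cases in DNP3 and 5.62% in DNP4, and in 0.486% to 2.32% in the other 8 animals. In DNP3, 72.0% of the S55A reads also carried T58P, against 25.1% in DNP4. N36H, in CDR1, was present in 27.6% of the reads of DNP1 and in 3.59% or less in each other animal. In DNP1 81.7% of the N36H reads came from the family of ARHGEVHLRYAMDA, and in DNP5 84.3% of the 51 N36H reads came from the family of ARLGELHLRYALDA. G63D in CDR2 was present in 19.8% of DNP1, but also in 20.1% of HuD5.

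**Figure D4:**
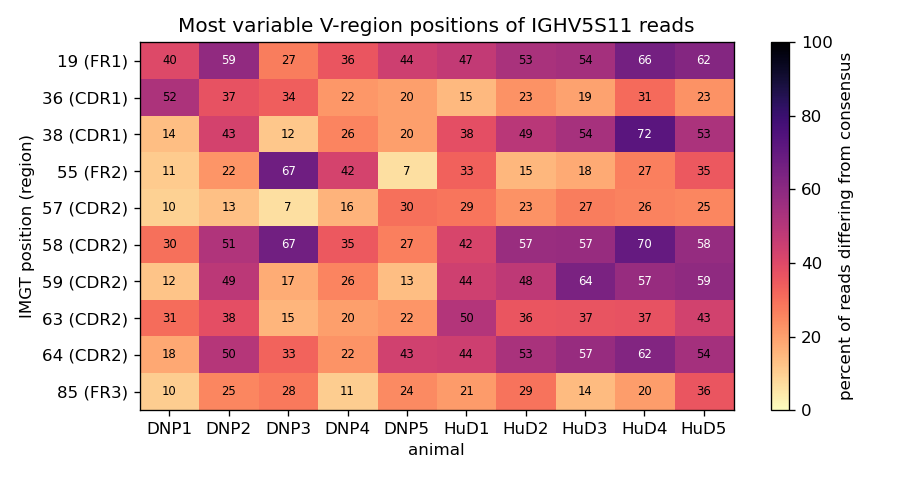
Percent of IGHV5S11 reads that differ from the consensus at each of the 10 most variable IMGT positions (rows, with region) in each animal (columns). At position 55 DNP3 (66.8%) and DNP4 (42.2%) stand highest, and at position 36 DNP1 (52.2%).

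Among the IGHJ genes, IGHJ4 was used by 49.8% of the reads in DNP1, against 8.38% to 17.6% in the other DNP animals and 12.2% to 19.4% in the HuD animals. When each family was counted once, the share of IGHJ4 in DNP1 was 19.3%, which lies within the range of 11.9% to 22% of the HuD animals. IGHJ2 was the most frequent IGHJ gene in the 9 other animals, with 53.7% in DNP3, 66.6% in DNP4, 59.9% in DNP5, 47.1% in DNP2 and 40.0% to 50.4% in the HuD animals. In DNP1 its share was 22%. IGHJ1 reached 23.3% in DNP3, where the family of 16 residues used it, and 22.9% in HuD3.

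For IGHD, which encodes the centre of CDR3, IGHD1-11 was named most often in DNP3 (38.8%) and DNP4 (39.1%), IGHD1-5 in DNP1 (30.6%) and IGHD1-1 in DNP5 (16.3%). IGHD1-11 had 379 reads in DNP3 and 1344 in DNP4. It was also the IGHD gene of the largest family of each, with 339 reads in DNP3 and 1070 in DNP4. Shares of IGHD with each family counted once were not computed. The IGHD name also varied within a family. In the largest family of DNP1, ARHGEVHLRYAMDA was given IGHD1-5 and ARHGEVPTRYAMDA IGHD2-1.

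For 5 measures, the IGHV5S11 reads were compared with the other IGHV5 reads of the same animal. The test was exact sign-flip permutation over 10 animals (two-sided, smallest possible p 0.00195), with Benjamini-Hochberg adjustment over the 5. None of the 5 is the level that chose the gene. The productive share and clonality are not independent of that level, because productive reads and clones of many reads enter both. CDR3 was longer in IGHV5S11 reads in 10 of 10 animals. The mean length was 13.4 residues ± 0.698 (SD, n = 10) against 11.8 ± 0.326 in the other IGHV5 reads. The difference was 1.53 residues ± 0.605 (SD), larger than the spread between animals, with an exact p of 0.00195 and an adjusted p of 0.00977. It was largest in DNP3, with 14.5 against 12.0 residues, and smallest in DNP4, with 12.7 against 12.0 residues. With each CDR3 counted once the difference was 1.06 residues. In DNP2 and the HuD animals, only 15.7% to 36.8% of the IGHV5S11 reads had a CDR3 led by this gene. Their lengths are thus largely those of CDR3 sequences led by other genes. With only CDR3 sequences led by IGHV5S11, a setting chosen after seeing the data, the difference was 1.38 residues.

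**Figure D5:**
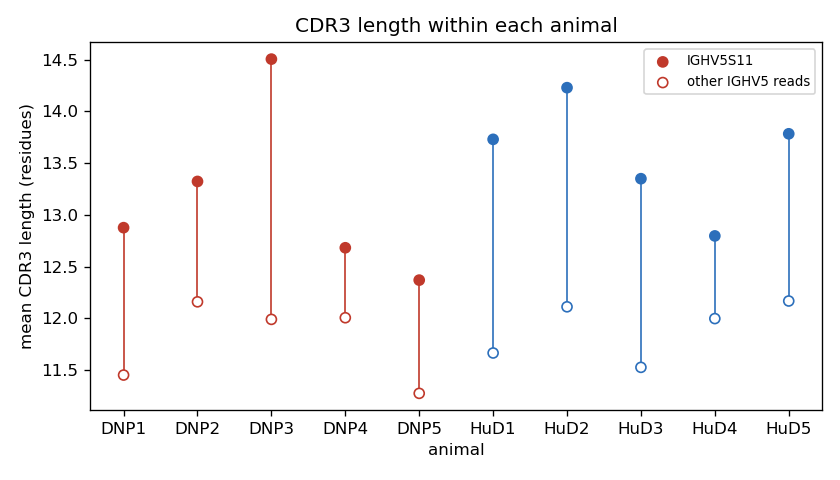
Mean CDR3 length in residues of the IGHV5S11 reads (filled) and of all other IGHV5 reads (open) of each animal, joined by a line (DNP red, HuD blue). The filled symbol is above the open one in 10 of 10 animals, by 0.677 residues in DNP4 and 2.52 residues in DNP3 at the extremes.

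The share of IGHJ2 was 46.9% ± 12.1 (SD, n = 10) against 53.8% ± 3.34, lower in 8 of 10 animals, and the exact permutation test did not pass the threshold (adjusted p = 0.176). Counting each pair of CDR3 and IGHJ once, the difference was -4.95 percentage points with an adjusted p of 0.0195 in the exact permutation test. The share of reads that rest on 1 sequenced copy was 86.7% ± 5.85 (SD, n = 10) against 83.1% ± 2.99, with an adjusted p of 0.176 in the exact permutation test. Without DNP4 both differences passed, each with an adjusted p of 0.0391 in the exact permutation test over the 9 other animals.

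Clonality was measured as the chance that 2 reads of a gene carry the same CDR3, and compared with the median over the other IGHV5 genes. It was 7.20% in DNP1 against 1.70%, 3.40% in DNP3 against 2.86%, 7.42% in DNP4 against 0.617% and 5.26% in DNP5 against 1.64%. In DNP2 it was 0.0439% against 1.49%, and in the HuD animals it was between 0.242% and 1.17% against 0.744% to 4.83%, lower in 5 of 5 animals. Over all 10 animals the difference was 0.486 percentage points ± 3.64 (SD), with an adjusted p of 0.674 in the exact permutation test. It fell to -0.0717 without DNP1 and -0.216 without DNP4. Its sign in the 4 animals with many reads was opposite to that in the other 6. Clones of many reads also raise the level by which the gene was chosen. No conclusion is therefore drawn from the test over 10 animals, and no test of this contrast is given.

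The productive share, of reads called productive or unproductive, was 83.7% ± 9.27 (SD, n = 10) against 92.1% ± 1.83 in the other IGHV5 reads, with an adjusted p of 0.0635 in the exact permutation test, 0.0488 without DNP3 and 0.0391 without DNP4. The IGHV5S11 values of DNP1, DNP3, DNP4 and DNP5 were between 91.4% and 95.9%, within 1.16 percentage points of the other IGHV5 reads of the same animal. DNP2 had 85.0% against 89.5%, and the HuD animals had between 73.0% and 77.2% against 90.1% to 93.4%. The unproductive IGHV5S11 reads behind these values were 35, 37, 47, 41 and 41 in HuD1 to HuD5. Productive reads also make up the level by which the gene was chosen. No conclusion is therefore drawn from this test or from its passes without DNP3 or DNP4.

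CDR3 sequences were rarely found in IGHV5S11 reads of several animals. Of the 2723 different sequences, 11 (0.404%) occurred in 2 animals and none in more, with 7 left without DNP1, 6 without DNP4 and 7 without DNP5. There were 8 shared between DNP animals, 1 between HuD animals and 2 between a DNP and a HuD animal. In 10 of the 11 cases at least 1 of the animals had a single read, the exception being ARPDY with 12 reads in DNP1 and 4 in DNP4. AKAGGYSPWYFDY had 901 reads in DNP4 and 1 in DNP3, TKAGGYSPWYFDY 102 and 1, ARHGGTGSSWYFDL 53 in DNP5 and 1 in DNP2, and ARQYYSPRVYLDY 38 in DNP5 and 1 in DNP2.

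The tag of each read has 22 bases, of which the first 10 are a section of bases from or next to CDR3 and the rest hold the molecular identifier. These sections are shown for shared CDR3 sequences because they are the only nucleotides of the joint in the data used here. They are written from 5′ to 3′, with the stretch in common between both animals in capitals.
AKAGGYSPWYFDY in animal DNP4: TATAGTCCCT
AKAGGYSPWYFDY in animal DNP3: TATAGTCCCT
ARHGGTGSSWYFDL in animal DNP5: GGGAGCTCCT
ARHGGTGSSWYFDL in animal DNP2: GGGAGCTCCT
ARQYYSPRVYLDY in animal DNP5: aGCCCTCGGG
ARQYYSPRVYLDY in animal DNP2: GCCCTCGGGt
In all 3 pairs the nucleotides agreed where the sections overlap, shifted by 1 base for ARQYYSPRVYLDY. For AKAGGYSPWYFDY and TKAGGYSPWYFDY the DNP3 read carried the complete tag of a read in DNP4 as well, with 1 copy in DNP3 against 7 and 4 copies in DNP4. Such identity of tag and CDR3 between animals was found for these 2 of the 11814 combinations of tag and CDR3 in IGHV5S11 reads, and for 1612 of 1614136 over all productive reads. Without these reads 9 shared CDR3 sequences were left. For AKAGGYSPWYFDY in DNP4, 734 of 901 reads have the section shown, so that mainly the molecular identifier tells them apart. The study describes this identifier as too short when used alone. Whether such identity arose by chance, or whether transfer between libraries of the same sequencing run took part, was not tested.

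At the level of families, 74 of 1985 had reads in at least 2 animals, 54 of them in DNP animals only, 6 in HuD animals only and 14 in both. With 10% in place of 20% of residues allowed to differ, 19 of 2278 families did. A family with IGHJ4 was present in 3 DNP animals. It was led by ARHDGTGPYYAMDV in DNP1 (77 reads), ARHMDSGPYYAMDA in DNP4 (11 reads) and ARHMDTGPYYAMDV in DNP5 (5 reads). The leading sequences of DNP1 and DNP4 differ at more than 20% of the residues and were joined through other members. Of the 331 productive reads with the CDR3 sequences and IGHJ gene of this family, only 28.1% named IGHV5S11. Another shared family joined ARRDTFYYFDY with 228 reads in DNP5 to ARRDGSYYFDY in DNP1, where the family had 89 reads. Since the DNP animals held most reads, they also had more chances of such matches, and these counts are not compared between the groups.

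Between families of different animals with at least 10 reads, the pair of similar leading CDR3 sequences with most reads was ARHGEVHLRYAMDA of DNP1, with 1937 reads in its family, and ARLGELHLRYALDA of DNP5, with 56 reads. Both used IGHJ4. They differed by H3L, V6L and M12L, counted from the first residue of CDR3 and with the residue of DNP1 first. Their most frequent sections have an identical stretch of 4 bases at the end, written in capitals here. Most of the lower-case bases before it are also identical between both animals.
ARHGEVHLRYAMDA in animal DNP1: cacctaCGCT
ARLGELHLRYALDA in animal DNP5: catctgCGCT
These pairs were chosen after their values were seen.

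For the 31 families with at least 50 reads, the CDR3 sequences and IGHJ gene were also searched in all productive reads whatever the IGHV gene. The share of these reads that named IGHV5S11 was 1.42% of 5144 reads for the family of ARSNNYYFDY. For the other 30 families it was between 28.1%, in the family of ARHDGTGPYYAMDV, and 77.1%.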

How the data were processed

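The productive sequences of 10 rat spleen libraries were analysed. The authors merged read pairs with PEAR, collapsed them with MIGEC at a minimum UMI count of 1 and annotated them with High-VQuest, of unstated versions. The deposited count beside each sequence is its number of sequenced copies. Each sequence was used as 1 read, and copies as an alternative. The libraries held 71562 to 287196 reads, of which 60647 to 259834 were productive. This number limits the precision, and intervals (95%, exact binomial) cover counting error only. The aligned V regions hold 1 extra gap column in CDR1 and 1 in FR3, which were removed to give IMGT positions. Usage was tested on numbers of reads of IGHV genes with at least 100 reads, with edgeR 4.0.16 (quasi-likelihood test, TMM) in R 4.3.3, and DESeq2 1.42.0 as an alternative, p-values adjusted by Benjamini-Hochberg, threshold 0.05. Other computations used Python 3.11.15, numpy 2.4.6, pandas 2.3.3 and scipy 1.17.1. The scripts were tested on simulated data.

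Groups came from the sample labels, with 5 animals each. Each animal is 1 sample, so p-values measure the spread between animals. Named were IGHV5S11, IGHV5 genes past the threshold, the 3 genes most like it by pattern and by consensus, genes named beside it in over 5% of its reads, leading and shared CDR3 sequences and the 10 most variable positions. Genes of opposite pattern, IGHV3-1, IGHV5-41, IGHV5-25 in the usage test, families, leading genes and single substitutions were chosen after the values were seen. The members and lists were chosen with earlier results of these data known.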

Additional observations from a re-analysis of the deposited data

Results flagged for a closer look

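2 of 30 group values, over 15 measures in both groups, had an animal far from the other 4 of its group by Dixon's test, where chance gives about 1 in 20. The share of IGHV5S11 reads whose CDR3 was led by IGHV5S11 was 36.8% in DNP2, while the other DNP animals had between 80.9% and 91.4%. This share is not independent of the level, which was also lowest in DNP2 among the DNP animals. The share of IGHJ4 was 49.8% in DNP1, while the other DNP animals had between 8.38% and 17.6%.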

How the results depend on the processing

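The higher level of IGHV5S11 in DNP animals and its longer CDR3 kept their direction under all alternatives tried, with differences of 3.31 to 4.84 on the log2(RPM + 1) scale and of 1.42 to 1.62 residues when 1 animal was left out, the latter with an adjusted p of 0.0195 each time. The former ranged from 2.27 with unique CDR3 sequences to 5.47 with CDR3 sequences led by IGHV5S11, and the latter was 1.06 residues with unique CDR3 sequences. Among these and the other results, 99 of 113 alternative values stayed on the same side of the threshold or within the allowed spread. This total includes the alternatives of the level, by which the gene was chosen. It also includes a minimum of 50 reads per animal, which every animal met, so that the values could not change. Alternatives restricted to CDR3 sequences led by IGHV5S11, to reads with M19 and E98, to tags found in 1 animal and to stricter families were chosen after seeing the data. With unique pairs of CDR3 and IGHJ, the IGHJ2 difference was -4.95 percentage points and passed the threshold. Leaving out 1 animal, this difference was between -9.32 and -3.76, the single-copy difference between 1.95 and 4.72, and the productive difference between -9.56 and -7.43 percentage points. The adjusted p of the first 2 fell to 0.0391 without DNP4, and that of the productive share to 0.0488 without DNP3 and 0.0391 without DNP4. The productive share is not independent of the level, and no conclusion is drawn from its passes. The clonality difference ran from -0.22 to 1.02 and changed sign without DNP1 (-0.0717) or DNP4 (-0.216). Shared CDR3 sequences numbered 1 when 2 reads per animal were required, and between 6 and 11 with 1 animal left out, of which 7 without DNP1, 6 without DNP4 and 7 without DNP5. The number of other IGHV5 genes past the threshold, 0 with edgeR, was 5 of 23 with DESeq2 (13 of all 80 genes), 6 of 23 with the replicate block (12 of 80), and between 0 and 10 with 1 animal left out, where only leaving out DNP2 gave more than 0 (29 of 80). With any other animal left out, 0 or 1 of all genes tested passed. The cause of these changes was not tested. Replicate numbers are shared between the groups by number only: deviations of same-numbered animals correlated between -0.13 and 0.23, and 2 of 10 animals correlated best with their own number.

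The 68 reads of DNP2 and the 100 to 140 reads of each HuD animal limit the precision of their shares, and rare clones of IGHV5S11 are not detectable there.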
